A study of Homo sapiens with 12 samples.

Results

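The genes described here are the nuclear genes of mitochondrial complex I, taken as every gene of the deposited table whose symbol is NDUFA, NDUFB, NDUFS or NDUFV with a number, NDUFC1, NDUFC2, NDUFAB1, or NDUFAF with 1 digit. The rule used symbols only and found 46 of the 63086 genes in the table. They comprised 7 subunits of the catalytic core, 9 accessory subunits of the matrix arm, 9 of the proximal membrane arm and 11 of the distal membrane arm. NDUFAB1, which sits in both arms, 8 assembly factors of the NDUFAF series and NDUFA4 completed the set. NDUFA4 has an NDUF name but is now placed in complex IV, so it forms a role group of its own. It is included in the counts, shares and medians over all members.

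RNA was sequenced from MIA PaCa-2, an established human pancreatic carcinoma cell line, in 12 libraries. WT was the parental line. The line named CRISPR Control was exposed to the same Cas9 procedure but acquired a mutation that leaves the protein sequence as it was, while in the lines TIMP1 KO 1 (KO 1 below) and TIMP1 KO 2 (KO 2 below) guides were directed at exon 4 of TIMP1. Each knockout line was 1 clone, each line had 3 libraries labelled as biological replicates, and no line received a treatment. Below, deficient lines means both knockouts, and competent lines means CRISPR Control together with WT. The knockout was represented by 2 lines, and within either of them the effect of losing TIMP1 and the particular history of the clone cannot be told apart. P-values measure the spread between the libraries of a line. In bulk RNA a lower level in every cell and fewer cells with the transcript cannot be told apart either.

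Libraries held 26908701 to 36093563 reads in genes. Values are read counts divided by a size factor of each library, called normalised counts, and differences were tested on log2(normalised count + 1) by limma in 15987 genes. TIMP1 itself held 3837, 3290.2 and 3532 normalised counts in WT, 2285, 2826 and 2959 in CRISPR Control, 1562, 1624 and 1613 in KO 1, and 1136, 1192 and 1155 in KO 2. It was therefore lowest in KO 2 and already lower in CRISPR Control than in WT, with no overlap between the deficient and the competent libraries. Of the markers of the cell line, KRT8, KRT18 and VIM were abundant, with line means from 16912 to 135667, while the leukocyte markers PTPRC and CD3E had line means from 0 to 5.17. EPCAM, fixed as a marker that should be low, had line means from 1299 to 2036, and CDH1, fixed likewise, had 1189 in WT and 1424 in CRISPR Control but 128 in KO 1 and 84.9 in KO 2. The endothelial marker PECAM1 had line means from 0 to 13.1.

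Complex I is the entry point of the respiratory chain. Its core takes electrons from NADH through a flavin and a chain of iron-sulfur clusters to ubiquinone, and couples this to pumping protons across the inner mitochondrial membrane. Core subunits of the matrix arm are made from nuclear genes, core subunits of the membrane arm from mitochondrial DNA, and accessory subunits, all nuclear, surround and stabilise both. Assembly factors bind intermediates and leave before the complex is finished. In many cells the nuclear genes are transcribed under shared regulators such as NRF1, the ETS factor GABP and YY1.

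The level of these genes was compared per kilobase of the main transcript. NDUFS5, an intermembrane space subunit of the proximal arm, had the highest mean level with 9679 normalised counts per kilobase, ahead of the distal arm subunit NDUFB2 with 6569 and the core subunit NDUFS8 with 5952. By role, the median level per kilobase in WT was 3423 for the core, 3367 for the distal arm, 1265 for the proximal arm, 1046 for the accessory matrix arm and 370.5 for the NDUFAF assembly factors. On this measure the assembly factors had the lowest median of these groups. The measure depends on the annotated length of the main transcript, and which form was expressed was not tested. NDUFS1, with a mean normalised count of 6240 over 11660 bases, ranked 33 of 46 per kilobase. The medians include the genes with shared bases described below. All 46 genes together made up 0.264% to 0.338% of the counts of a library.

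At the lower end were 2 genes that did not reach the mean of 10 normalised counts required for testing. NDUFV2, a core subunit that carries an iron-sulfur cluster, had values from 0 to 19.9 in single libraries and a mean level of 7.93 per kilobase. The 0 was in CRISPR Control replicate 3, where a count of 0 allows up to 3.30 normalised counts. NDUFA7, an accessory subunit of the matrix arm, ranged from 0.909 to 11.4, with a mean level of 10.2 per kilobase. In the gene annotation, 89.97% of the bases of the main NDUFV2 transcript and 77.9% of those of NDUFA7 are also exons of another gene on the same strand. Between 50% and 100% of the bases were shared in this way in 5 members, the others being NDUFA13 (83.9%), NDUFB8 (71.98%) and NDUFA11 (68.2%). Their median level was 86.4 per kilobase against 1550.5 in the other 41 members. The ranges overlapped, with 7.93 to 748 in the 5 and 55.7 to 9679 in the others. How reads that fall on more than 1 gene were counted is not stated, and its part in these low values was not tested. A processed copy of NDUFV2, the pseudogene NDUFV2P1, had a mean of 148 normalised counts, above that of NDUFV2 itself, and reads of the gene and its copy may not be separable. Values of the 5 genes may depend on how reads on shared bases were counted, which was not tested.

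**Figure D1:**
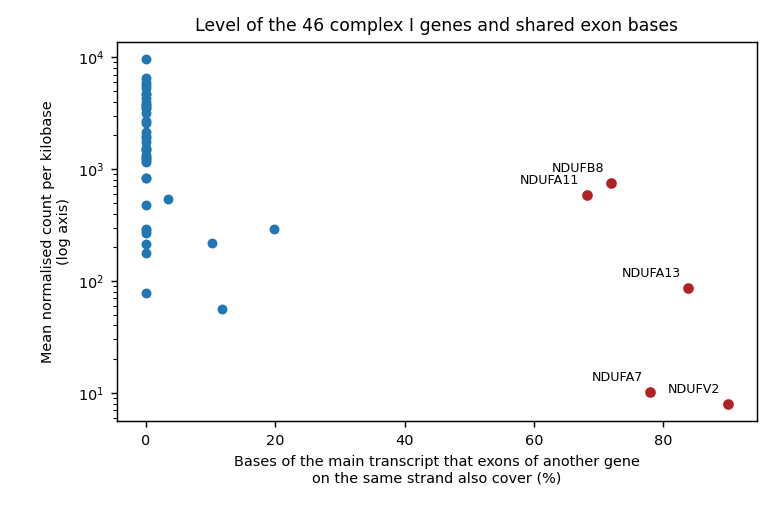
Mean normalised count per kilobase over all 12 libraries (log axis) against the percentage of bases of the main transcript that are also exons of another gene on the same strand, 1 point per gene for the 46 genes. The 5 genes in red, with more than 50% of their bases shared, lie at 7.93 to 748 per kilobase. The blue points lie at 55.7 to 9679, so the ranges overlap.

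Promoter sequences were searched for the letters of 3 motifs, on both strands, from 250 bases before to 50 after the start site. RefSeq promoters (GRCh38.p14) were given for 39 of the 46 genes. The core of the NRF1 motif, GCATGCGC, was in 7 of 39 members (17.9%), in 5.52% of the promoters of tested genes and in 3.27% of all 27305 promoters. AAGATGGC, a YY1 motif, was in 6 members (15.4%), against 5.17% of the promoters of tested genes and 3.03% of all. CCGGAAG, an ETS motif, was in 6 members (15.4%), against 18.4% and 10.7%. At least 1 of the motifs was present in 16 members (41.0%) and in 26.2% of the promoters of tested genes. The windows below hold the NRF1 core or the ETS motif in capitals, with the bases around it, and are shown because they are upstream matches in members named for their changes further on. The NRF1 core overlaps itself on the opposite strand in NDUFB4, which gives 2 matches.
NDUFA6 (chr22:42090901-42090968, minus strand, NRF1 core 166 bases before the start): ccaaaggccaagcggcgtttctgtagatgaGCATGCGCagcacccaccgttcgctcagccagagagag
NDUFB4 (chr3:120596147-120596216, plus strand, NRF1 core from 159 bases before the start): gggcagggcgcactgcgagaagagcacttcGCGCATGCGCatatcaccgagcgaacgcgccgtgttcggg
NDUFS6 (chr5:1801331-1801398, plus strand, NRF1 core 46 bases before the start): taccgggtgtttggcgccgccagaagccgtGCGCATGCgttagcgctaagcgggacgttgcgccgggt
NDUFS1 (chr2:206159565-206159631, minus strand, ETS motif 157 bases before the start): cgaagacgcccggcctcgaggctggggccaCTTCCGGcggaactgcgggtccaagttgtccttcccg
The windows of NDUFV1, NDUFAB1, NDUFAF2 and NDUFAF3 held none of these letters, which says nothing about the factors themselves.

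KO 1 was compared with WT to ask which complex I genes differed in the first knockout line. NDUFV1, NDUFAB1, NDUFAF2, NDUFAF3 and NDUFAF4 fell, NDUFA2 and NDUFC2 rose, and 37 of the 44 tested members did not pass the test. This was 15.9% of the members at an adjusted p under 0.05, and 35.5% of all tested genes passed, 18.0% higher and 17.5% lower. The median log2 fold change of the members was -0.041, and that of all genes was 0.00. It turned to 0.012 without WT replicate 1 and was -0.067 and -0.073 without WT replicates 2 and 3. Levels in KO 1 ran from 76.7% to 144% of WT, and 38 of 44 members were within 20% of the WT level. The count rested on single libraries, with 2 calls without KO 1 replicate 1, 3 without KO 1 replicate 3 and 4 without WT replicate 1. With equal library totals the 2 higher and 5 lower calls became 1 and 6.

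KO 2 differed from WT in more of these genes, with 11 lower and 1 higher. The members that fell were NDUFV1 of the core, NDUFA10 of the proximal arm, NDUFB4, NDUFB9, NDUFB10 and NDUFB11 of the distal arm, NDUFAB1, and the assembly factors NDUFAF3, NDUFAF4, NDUFAF6 and NDUFAF8. NDUFB3 rose. The called share was 27.3% of 44 members and 55.0% of all genes (27.1% higher and 27.9% lower), with a median of -0.080 in the members and -0.01 in all genes. Without WT replicate 1 the median was -0.028, and without KO 2 replicate 1 it was -0.050. The fall of NDUFA10 (-0.18, limma adjusted p 0.0417) lost its call without any of 6 single libraries, with values from -0.19 to -0.11, and under 5 of the other alternatives. Of the 44, 34 were within 20% of WT, and the range was 57.7% to 143%. Scaled to equal library totals, the calls were 5 higher and 6 lower and the median was 0.015, while that of all genes moved to 0.086.

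CRISPR Control was compared with WT to see what changed in an edited line that was not a knockout. Here 17 members rose and 3 fell, 45.5% of the members against 53.4% of all genes, of which 27.2% rose and 26.3% fell. The median was 0.11, against 0.01 in all genes. Rises were spread over the distal arm, with 6 of 11 members, the assembly factors, with 5 of 8, and the proximal arm, with 3 of 9, while no core subunit rose. NDUFA3 and NDUFV3 were among those that fell. Levels reached from 75.2% to 182% of WT. The count dropped to 13 without WT replicate 1 and to 13 without CRISPR Control replicate 2.

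**Figure D2:**
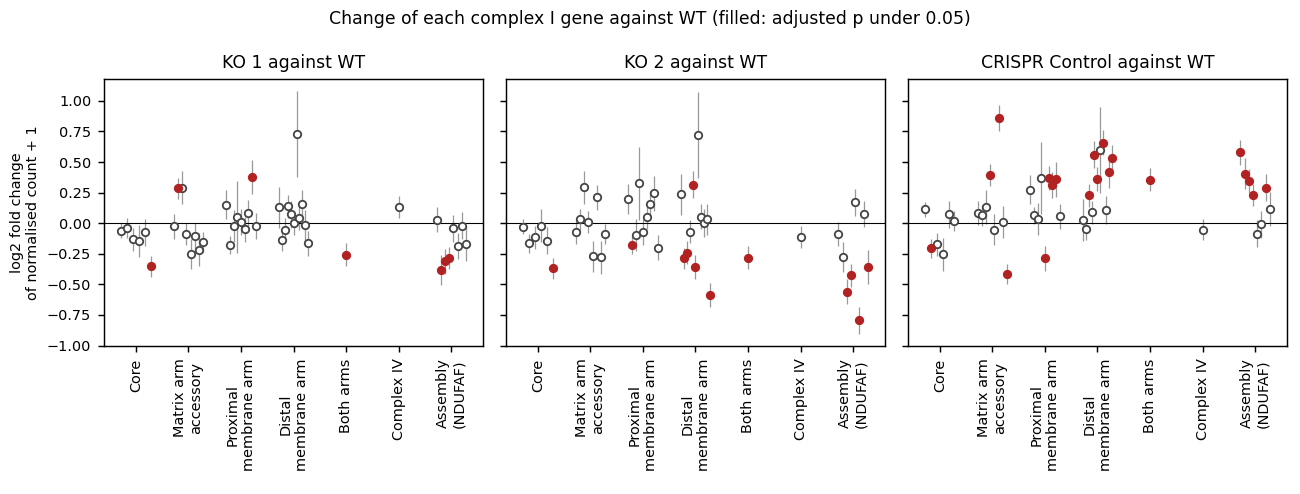
Log2 fold change of normalised count + 1 against WT for the 44 tested genes, grouped by role, in KO 1, KO 2 and CRISPR Control; bars are the standard error of the limma fit and filled points passed an adjusted p of 0.05. Filled points lie below 0 for most genes in the KO panels (5 of 7 and 11 of 12) and above 0 in CRISPR Control (17 of 20).

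The libraries of CRISPR Control differed among themselves in these genes. The median deviation of the members from their own mean over the 12 libraries was -0.07 (log2) in CRISPR Control replicate 1, 0.38 in replicate 2 and 0.18 in replicate 3. In the other 9 libraries it lay between -0.11 and 0.10. Complex I transcripts are short, and 27 of the 44 tested members had a main transcript under 1000 bases. The 687 other tested genes of that length deviated in the same libraries by -0.12, 0.17 and 0.13. Members under 1000 bases deviated by 0.39 and the 17 longer members by 0.31 in replicate 2. The same values were 0.22 and 0.07 in replicate 3, and -0.08 and -0.01 in replicate 1. The part of transcript length in the difference between CRISPR Control and the other lines was not tested. The median coefficient of variation of the members was 14.7% in CRISPR Control, against 7.35% in WT, 8.20% in KO 1 and 8.72% in KO 2. Without CRISPR Control replicate 2 the median of the members against WT was 0.05, and without replicate 1 it was 0.23.

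**Figure D3:**
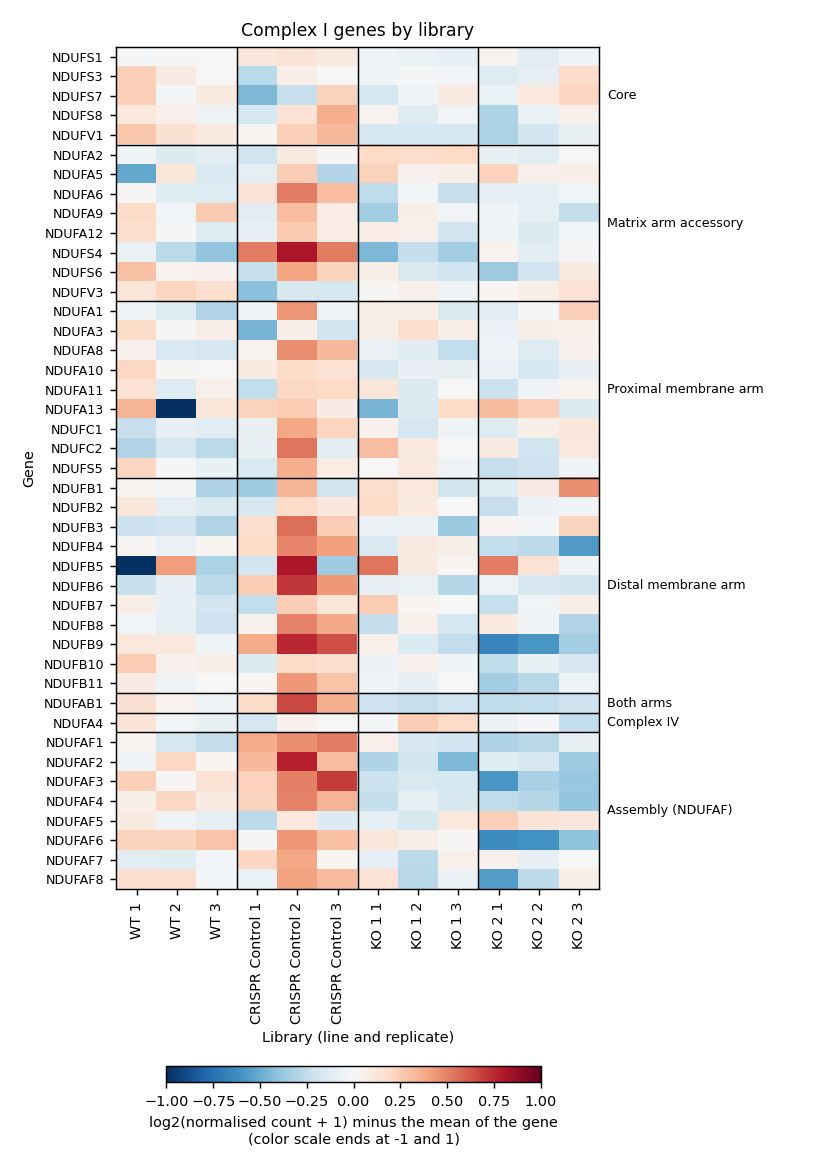
Log2(normalised count + 1) of 43 of the tested genes in each library, minus the mean of the gene over the 12 libraries, with genes grouped by role and color running from -1 (blue) to 1 (red). CRISPR Control replicate 2 is the library with the highest median deviation (0.38), and KO 2 replicate 1 has the lowest (-0.11).

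Both knockout lines were also set against CRISPR Control. KO 1 had 18 members lower and 3 higher, 47.7% of the members against 63.0% of all genes (31.7% higher and 31.3% lower). KO 2 had 20 lower and 2 higher of 44, against 67.7% of all genes (33.3% higher and 34.4% lower). The medians were -0.19 and -0.22, and those of all genes were 0.00 and -0.01. Without CRISPR Control replicate 2 they were -0.11 and -0.13, and without CRISPR Control replicate 1 they were -0.30 each. With equal library totals KO 2 had 14 lower and 4 higher, with a median of -0.10 while that of all genes moved to 0.11. NDUFV3 was higher than in CRISPR Control in both lines, by 0.26 (limma adjusted p 0.0103) in KO 1 and 0.33 (adjusted p 0.00188) in KO 2, the former lost without CRISPR Control replicate 1 (0.18). These comparisons share the CRISPR Control libraries, so the deviations of those libraries enter both.

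The mean of the deficient lines against the mean of the competent lines gave 20 members lower and 1 higher, 47.7% of the members against 65.9% of all genes and, for lower calls, 45.5% against 33.0%. Of all genes 32.9% were higher. Of the 20 lower members, 8 were called lower than WT in neither knockout line. Among the 20, 12 were called higher in CRISPR Control against WT. The median of the members was -0.13, or -0.085 without CRISPR Control replicate 2, and that of all genes was 0.00. Lower calls were found in 6 of 8 assembly factors, 5 of 11 distal arm subunits, 4 of 8 tested accessory subunits of the matrix arm, 2 of 9 proximal arm subunits and 2 of 6 tested core subunits. With equal library totals the counts were 16 lower and 4 higher. All 6 deficient libraries lay below all 6 competent libraries in 6 members, NDUFV1, NDUFAB1, NDUFA10, NDUFAF2, NDUFAF3 and NDUFAF4, and above them in 0. Of all tested genes, 24.7% separated, 12.4% in the lower and 12.3% in the higher direction. Typical changes in members were small: the median absolute log2 fold change was 0.18, against 0.35 in all genes.

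NDUFV1 was the single member of the intersection, the set of genes that differed from WT in both knockout lines in the same direction and not in CRISPR Control. The intersection held 10.2% of all tested genes, and 5.18% in the lower direction. Both knockout comparisons used the same WT libraries. NDUFV1, on chromosome 11 at 67605653 to 67612554 (GRCh38, plus strand), encodes the core subunit that binds NADH and the flavin. It held 6954, 6384 and 6116 normalised counts in WT and 5809.6, 6756 and 7163 in CRISPR Control. In KO 1 it held 5063, 5063 and 5080.3, and in KO 2 4599, 5026 and 5441. The knockout libraries were below every competent library, the highest at 5441 and the lowest competent one at 5809.6. KO 1 differed from WT by -0.35 on the log2 scale (SE 0.08, limma adjusted p 0.00248), at 78.2% of the WT level. KO 2 differed by -0.37 (SE 0.08, limma adjusted p 0.000912), at 77.4%. In CRISPR Control it was 0.02 (SE 0.08, adjusted p 0.882). Without single libraries the intersection held up to 5 members: 2 without any one WT replicate or without CRISPR Control replicate 1, 5 without CRISPR Control replicate 2 and 3 without CRISPR Control replicate 3. NDUFV1 was among them each time, with NDUFAF4 in 4 of these cases.

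NDUFS1, the largest iron-sulfur subunit of the core, had a mean normalised count (± SD, n = 3 libraries) of 6208 ± 65.0 for WT and 6715 ± 90.5 for CRISPR Control, and of 5942 ± 122 for KO 1 and 6093 ± 293 for KO 2. Deficient against competent lines gave -0.10 (limma adjusted p 0.0453), and the call was lost when any of 9 single libraries was left out, with values from -0.11 to -0.08. NDUFS3, NDUFS7 and NDUFS8 passed in none of the 7 comparisons by limma.

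In the accessory matrix arm, NDUFS4 moved most between the competent lines. It is needed for a stable NADH-oxidising part of the complex, and its loss causes Leigh syndrome. Its normalised counts were 789, 683 and 628 in WT and 1177, 1454 and 1180.2 in CRISPR Control. KO 1 held 602, 699.9 and 648, and KO 2 held 843, 761 and 819. CRISPR Control was far above all other libraries, and WT and the knockout lines overlapped. The log2 fold change was 0.86 (SE 0.10, limma adjusted p 1.39e-06) in CRISPR Control, -0.10 (adjusted p 0.475) in KO 1 and 0.21 (adjusted p 0.0917) in KO 2, each against WT. Deficient against competent lines it was -0.37 (adjusted p 0.000187). NDUFV3, an accessory subunit next to NDUFV1, went the other way in CRISPR Control, with 760.1, 909 and 896 against 1104, 1176 and 1132 in WT. This was -0.42 (SE 0.08, adjusted p 0.000363), and all 3 CRISPR Control libraries lay below the other 9.

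NDUFA6, which binds an acyl carrier protein, had a mean normalised count (± SD, n = 3 libraries) of 1761 ± 93.7 for WT and 2330 ± 297 for CRISPR Control, and of 1656 ± 145 for KO 1 and 1767 ± 44.2 for KO 2. CRISPR Control against WT gave 0.40 (limma adjusted p 0.00107), and deficient against competent lines -0.24 (adjusted p 0.00260), with neither knockout line different from WT. NDUFA2 rose in KO 1, with 995, 976 and 991 against 839.8, 786 and 803 in WT, a log2 fold change of 0.29 (adjusted p 0.0127). The KO 1 libraries were above all others for this gene. NDUFS6, an accessory subunit close to NDUFS4, gave -0.25 between deficient and competent lines (adjusted p 0.0246), a call lost without any of 7 single libraries, with values from -0.24 to -0.19. The only member higher in the deficient lines, NDUFA5, gave 0.23 (adjusted p 0.0461) and lost the call without any of 10 single libraries, with values from 0.14 to 0.24.

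NDUFAB1, the mitochondrial acyl carrier protein, also serves fatty acid synthesis and iron-sulfur cluster assembly. It held 2722, 2506 and 2358 normalised counts in WT and 2779.5, 3861 and 3133 in CRISPR Control. In the knockout lines the values were tight, at 2123, 2079 and 2134 in KO 1 and 2052, 2059.6 and 2119 in KO 2. Every deficient library was below every competent one, and all 3 CRISPR Control libraries were above all WT libraries. Log2 fold changes against WT were -0.26 (SE 0.09, limma adjusted p 0.0391) in KO 1, -0.28 (adjusted p 0.0161) in KO 2 and 0.35 (adjusted p 0.00375) in CRISPR Control. KO 1 lost the call without WT replicate 1 or 2, without any KO 1 replicate and without KO 2 replicate 2, with values from -0.26 to -0.20. KO 2 lost it without WT replicate 1 (-0.23). Within 1 Mb of NDUFAB1, the 12 other tested genes had medians against WT of -0.32 in KO 1, -0.15 in KO 2 and 0.05 in CRISPR Control. Their part in the result was not tested.

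Of the 20 membrane arm subunits, 9 rose and 1 fell in CRISPR Control against WT, where 27.2% of all genes rose and 26.3% fell. NDUFB6 of the distal arm had 1829, 2512 and 2065 normalised counts in CRISPR Control, above all others, and 1311, 1442 and 1274 in WT. The 6 knockout libraries lay between 1256 and 1473. CRISPR Control against WT gave 0.66 (SE 0.10, limma adjusted p 2.32e-05), and KO 1 and KO 2 gave 0.05 each (adjusted p 0.762 and 0.666). NDUFB3 rose by 0.56 (adjusted p 0.000319) in CRISPR Control and by 0.32 (adjusted p 0.0215) in KO 2, the latter lost without WT replicate 3 (0.28) or KO 2 replicate 3 (0.25). In the proximal arm, NDUFA8 gave 0.37 (adjusted p 0.00450) in CRISPR Control against WT. NDUFC2 gave 0.36 (adjusted p 0.0393) there and 0.38 (adjusted p 0.0452) in KO 1, calls lost without several single libraries, with values down to 0.15 and 0.29.

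NDUFB9, a distal arm subunit, showed the largest difference of a member between deficient and competent lines. Its normalised counts were 4048, 4063 and 3656 in the WT libraries and 4886, 6348 and 5893 in those of CRISPR Control, with 3909, 3424 and 3182 for KO 1 and 2381, 2514 and 2964 for KO 2. CRISPR Control was above and KO 2 below every other library, and KO 1 overlapped WT. Against WT the log2 fold change was 0.53 (SE 0.10, limma adjusted p 0.000231) in CRISPR Control, -0.17 (adjusted p 0.223) in KO 1 and -0.59 (adjusted p 8.16e-05) in KO 2. Against CRISPR Control, KO 2 gave -1.12 (adjusted p 1.37e-08). NDUFB4, another distal arm subunit and 1 of the genes with an NRF1 core, had a mean normalised count (± SD, n = 3 libraries) of 2763 ± 93.6 for WT and 3567 ± 380 for CRISPR Control, and of 2771 ± 244 for KO 1 and 2166 ± 260 for KO 2. KO 2 against WT was -0.36 (adjusted p 0.00397), with KO 1 at 0.00. NDUFA10 of the proximal arm was separated between deficient and competent libraries, with 3523 to 3827 against 3973 to 4612, and gave -0.21 (adjusted p 0.00125).

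NDUFB5, also of the distal arm, had the widest spread, with 275, 1140.1 and 686 in WT and 751, 1502 and 668 in CRISPR Control. This is a coefficient of variation of 61.8% and 47.2%. It passed in none of the comparisons, and its level cannot be ordered between lines.

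**Figure D4:**
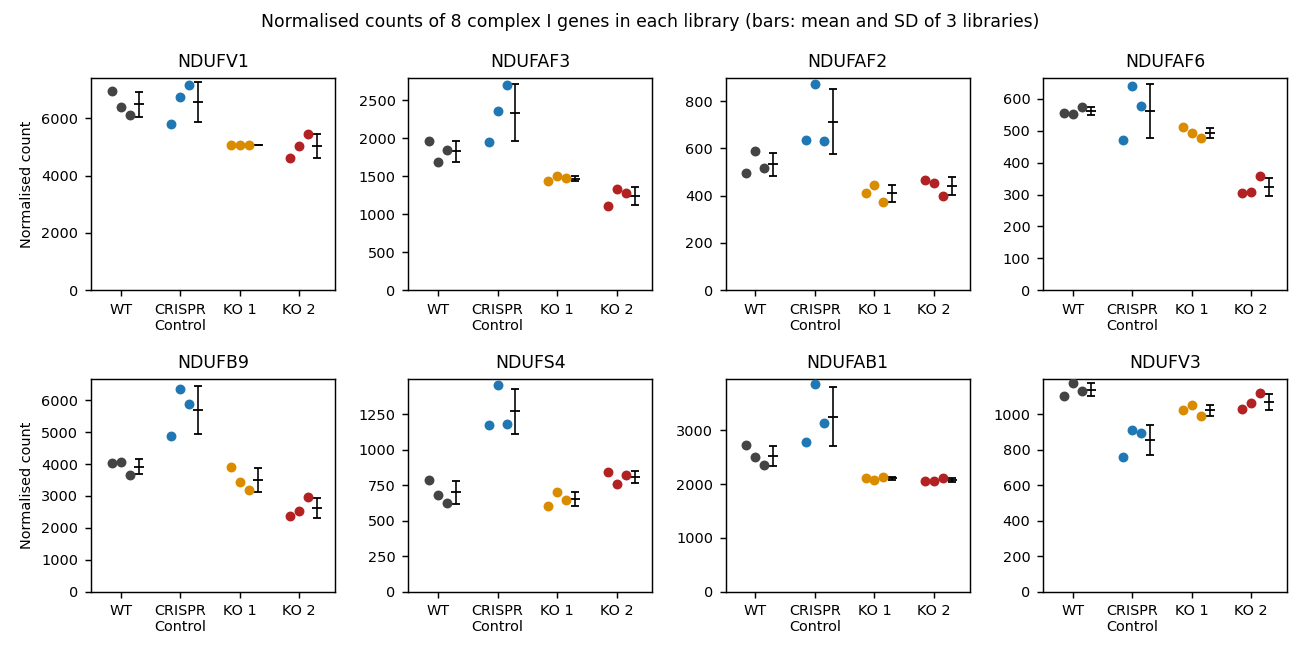
Normalised counts of 8 complex I genes in each library of WT, CRISPR Control, KO 1 and KO 2, with the mean and SD of 3 libraries as a bar beside the points. NDUFV1 and NDUFAF3 are below the competent libraries in both knockout lines, NDUFAF6 and NDUFB9 are lowest in KO 2, and NDUFS4 and NDUFV3 stand apart in CRISPR Control.

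Of the 8 assembly factors, 6 fell between deficient and competent lines, where 33.0% of all tested genes fell. Their median log2 fold change was -0.40, while the medians of the subunit groups ranged from -0.19 in the distal arm to -0.04 in the proximal arm, leaving aside NDUFAB1. In KO 1 against WT the median was -0.18 with 3 of 8 lower (17.5% of all genes), and in KO 2 -0.32 with 4 of 8 lower (27.9% of all genes). NDUFAF3, which with NDUFAF4 assembles the part that holds the ubiquinone site, had 1962, 1684 and 1844 normalised counts in WT and 1954, 2364 and 2703 in CRISPR Control. KO 1 held 1436, 1499.9 and 1477, and KO 2 held 1113, 1332 and 1281. The line means fell in the order CRISPR Control, WT, KO 1, KO 2, with overlap of WT and CRISPR Control and no overlap of deficient and competent libraries. Its log2 fold change was -0.31 (SE 0.10, limma adjusted p 0.0227) in KO 1, -0.56 (adjusted p 0.000136) in KO 2 and 0.35 (adjusted p 0.00820) in CRISPR Control, each against WT. KO 1 lost the call without WT replicate 1 or 3 or KO 1 replicate 1 or 3, with values from -0.32 to -0.26, and CRISPR Control lost it without its replicate 3 (0.23). The 51 other tested genes within 1 Mb of NDUFAF3 had medians of -0.17, -0.33 and 0.34 in these comparisons, and their part in the result was not tested.

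The partner of NDUFAF3, NDUFAF4, fell outside the rule for named genes and was chosen after its values were seen. It had a mean normalised count (± SD, n = 3 libraries) of 735 ± 41.7 for WT and 865 ± 82.4 for CRISPR Control, and of 603 ± 28.8 for KO 1 and 546 ± 25.7 for KO 2. Against WT it gave -0.28 (limma adjusted p 0.0205) in KO 1, -0.43 (adjusted p 0.000603) in KO 2 and 0.23 (adjusted p 0.0378) in CRISPR Control. The KO 1 call was lost without WT replicate 2 or KO 1 replicate 1 or 3 (up to -0.24), and that of CRISPR Control without WT replicate 1 or 3 or CRISPR Control replicate 2 or 3 (down to 0.16).

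NDUFAF2, a late assembly factor related to the subunit NDUFA12, had 496, 588 and 516 in the WT libraries and 637, 873 and 631 in those of CRISPR Control, with 411, 444 and 373 for KO 1 and 468, 455 and 397 for KO 2. Its deficient libraries lay below all competent ones. Deficient against competent lines gave -0.53 (SE 0.09, limma adjusted p 2.92e-05). KO 1 against WT gave -0.38 (adjusted p 0.0220), lost without WT replicate 2 or KO 1 replicate 1 or 3 (from -0.39 to -0.31), and KO 2 gave -0.28 (adjusted p 0.0657). NDUFAF1, which helps to build the membrane arm, rose in CRISPR Control, with 910.4, 971 and 1009 against 718, 624 and 597, a change of 0.58 (adjusted p 8.38e-05). KO 1 gave 0.03 (adjusted p 0.851) and KO 2 -0.09 (adjusted p 0.459), and all CRISPR Control libraries were above all others.

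NDUFAF6, needed for an early membrane arm intermediate, was lower in KO 2. Its normalised counts were 556, 552 and 576 in the WT libraries and 469.9, 639 and 578 in those of CRISPR Control, with 511, 492 and 477 for KO 1 and 306, 309.5 and 357 for KO 2. KO 2 held 57.7% of WT and overlapped no other line. KO 2 against WT gave -0.79 (SE 0.11, limma adjusted p 6.02e-06), KO 1 -0.19 (adjusted p 0.201), and KO 2 against KO 1 -0.61 (adjusted p 0.000227). The 12 other tested genes within 1 Mb had a median of -0.23 in KO 2 against KO 1. NDUFB9 lies on the same chromosome, and the 13 tested genes within 1 Mb of it had a median of -0.22 in that comparison. The part of the neighbourhood in either result was not tested.

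KO 2 was compared with KO 1 to ask where the knockout lines differed from each other. NDUFA2, NDUFA4, NDUFB4, NDUFB9 and NDUFAF6 were lower and NDUFS4 was higher in KO 2, 13.6% of the members against 38.2% of all genes (18.1% higher and 20.1% lower), with a median of -0.021. The median was -0.034 without KO 1 replicate 2, -0.062 without KO 1 replicate 3 and -0.071 without KO 2 replicate 3. NDUFA4, the complex IV subunit, had a mean normalised count (± SD, n = 3 libraries) of 5249 ± 392 for WT and 5063 ± 379 for CRISPR Control, and of 5766 ± 566 for KO 1 and 4856 ± 406 for KO 2. It gave -0.25 (limma adjusted p 0.0329) between the knockout lines, lost without KO 1 replicate 2 (-0.19) or 3 (-0.22) or KO 2 replicate 3 (-0.18). Without KO 1 replicate 3 the comparison had 3 calls, and with equal library totals it had 3 higher and 3 lower.

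Other genes of the respiratory chain were taken from lists fixed by function. Of 7 mitochondrially encoded complex I subunits, 6 rose and 0 fell between deficient and competent lines, where 32.9% of all genes rose, with a median of 0.38, while the nuclear genes had -0.13. MT-ND6, made from the light strand of mitochondrial DNA, had 2730.1, 2902 and 2729 normalised counts in WT, 2296, 3195 and 2826 in CRISPR Control, 4179, 4064 and 3398 in KO 1 and 7088, 7156 and 5839 in KO 2. KO 2 was highest, KO 1 lay between, and the competent lines overlapped. KO 1 exceeded WT by 0.47 on the log2 scale (SE 0.11, limma adjusted p 0.00218), and KO 2 by 1.26 (adjusted p 1.39e-08). Against WT, 5 of the 7 rose in KO 2 (27.1% of all genes), 2 in KO 1 (18.0% of all genes) and 0 in CRISPR Control (27.2% of all genes). Mitochondrial and nuclear genes are read from different genomes, and whether the number of mitochondrial genomes differed between lines was not tested.

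Nuclear genes of the other complexes were called lower in part. Between deficient and competent lines, lower and higher calls numbered 5 and 0 of 9 in complex III, 7 and 0 of 10 in complex IV, 6 and 0 of 15 in ATP synthase, and 1 and 1 of 8 in complex II. Of all tested genes 33.0% were lower and 32.9% higher in this comparison. The medians of the 4 lists were -0.30, -0.22, -0.05 and -0.07. CRISPR Control itself differed from WT here, with 5 of 9 complex III genes and 6 of 10 complex IV genes higher and 0 lower, against 27.2% of all genes higher. In KO 2 against WT 3 of 9 and 2 of 10 fell, shares near the 27.9% of all genes that fell, and 1 complex IV gene was higher. KO 1 against WT had 3 of 9 complex III genes lower, where 17.5% of all genes fell. Complex IV had 0 of 10 genes called in KO 1. In ATP synthase 7 of 15 genes fell in KO 2 against WT and 0 rose. In KO 1, 2 of the 15 fell and 1 rose (17.5% and 18.0% of all genes). Complex II had 1 lower and 1 higher of 8 in KO 1 and 0 calls in KO 2. Between deficient and competent lines, UQCRC1, a core protein of complex III, gave -0.85 (limma adjusted p 3.22e-10) and COX5A of complex IV -0.50 (adjusted p 7.72e-07). ATP5MC1 of ATP synthase gave -0.64 (adjusted p 4.50e-08) and SDHB of complex II -0.37 (adjusted p 1.03e-05). All 4 genes were called higher in CRISPR Control than in WT, ATP5MC1 not without WT replicate 2 or CRISPR Control replicate 2. UQCRC1 and ATP5MC1 were called lower than WT in both knockout lines, and COX5A only in KO 2. SDHB was called lower than WT only in KO 1, a call lost without WT replicate 1 or KO 1 replicate 3. Of 11 complex I assembly factors without an NDUFAF name, 4 fell and 2 rose between deficient and competent lines (33.0% and 32.9% of all genes). TMEM70, which also serves ATP synthase, gave -0.40 (adjusted p 1.45e-05). It was called higher in CRISPR Control than in WT, and lower than WT only in KO 2. That KO 2 call was lost without WT replicate 1 or 2 or KO 2 replicate 1 or 2. Against WT, 7 of the 11 fell and 2 rose in KO 2 (27.9% and 27.1% of all genes), with a median of -0.30. In CRISPR Control 4 fell and 2 rose (26.3% and 27.2% of all genes), with a median of -0.18. In KO 1, 1 fell and 1 rose (17.5% and 18.0% of all genes).

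**Figure D5:**
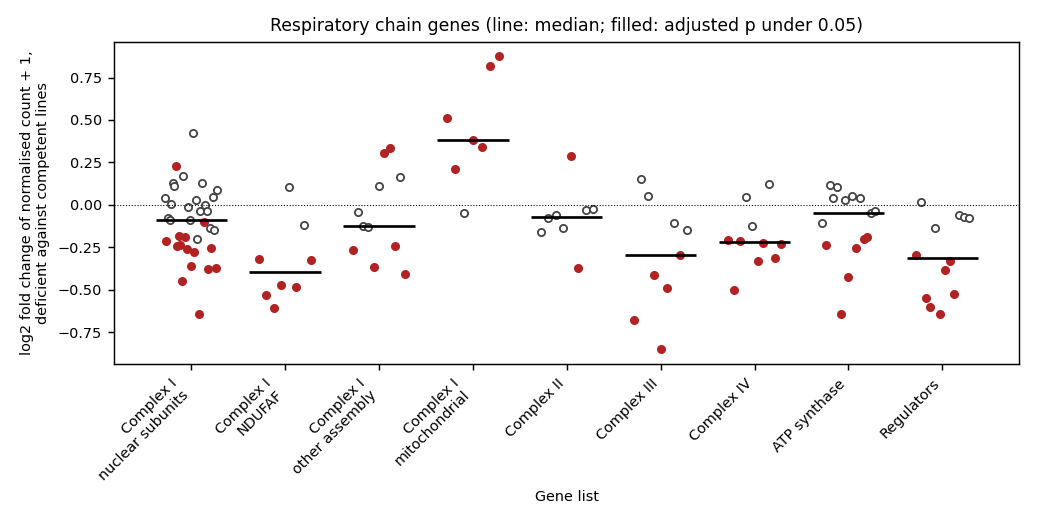
Log2 fold change of normalised count + 1 between deficient and competent lines for tested genes of the respiratory chain and its regulators, by list; short lines are medians and filled points passed an adjusted p of 0.05. Complex I genes encoded in mitochondria have a median of 0.38 and complex III genes one of -0.30.

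Among 12 tested regulators of mitochondrial gene expression, 7 fell and 0 rose between deficient and competent lines (33.0% of all genes fell and 32.9% rose), with a median of -0.31. PPARGC1B, a coactivator of such genes, gave -0.64 (limma adjusted p 0.000423). KO 1 held a mean of 97.8 normalised counts and KO 2 one of 141, against 160 for WT. Only KO 1 was called lower than WT. The CRISPR Control libraries were spread, at 275, 142 and 230, and enter the pooled value. NRF1, chosen after its values were seen because its motif was searched, held 827, 838 and 816 normalised counts in WT, 764, 695 and 749 in CRISPR Control, 674, 592 and 701 in KO 1 and 435, 366 and 416 in KO 2. KO 2 was lowest, with no overlap, at -1.03 against WT (SE 0.09, adjusted p 2.76e-08). KO 1 gave -0.34 (adjusted p 0.00816), lost without KO 1 replicate 2 (-0.27). In KO 2 against WT, 2 of 7 members with the NRF1 core and 7 of 30 without it fell, and of all tested genes with a promoter 34.0% of those with the core and 30.3% of those without. Between deficient and competent lines 5 of 7 and 13 of 30 members fell, against 38.9% and 35.3% of all tested genes. These shares are descriptions, with no test.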

How the data were processed

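The authors used Cutadapt for trimming, STAR for alignment to GRCh38, featureCounts for gene counts and DESeq2 for size factors. The signal they deposited is the count of a gene over the size factor of its library, here called a normalised count. The strand setting, the treatment of reads on more than 1 gene and the annotation release are not given in the sources used here. Each value was a whole multiple of the value of 1 read (100% of values within 0.01 reads), which gave the depth and the reads used by edgeR and DESeq2. Scaling by size factors removes shifts shared by most genes.

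Genes with a mean of at least 10 were tested by limma 3.58.1 (lmFit, contrasts.fit, eBayes with trend; R 4.3.3) on log2(normalised count + 1), a scale that understates changes of low genes. All 12 libraries entered as 4 line means, 7 contrasts were tested two-sided, with Benjamini-Hochberg adjustment over 15987 genes at 0.05. The fit was tested on simulated data. Medians over members and motif shares are descriptions without a test. Coordinates and transcript lengths are from GENCODE release 44, to which 99.1% of identifiers matched. Intervals and floors (3 reads) cover counting error only.

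The members and lists were chosen with earlier results of these data known. Genes were named by a rule: TIMP1, NDUFA4, NDUFAB1, intersection genes, untested genes, the highest and lowest level per kilobase, in each role the largest calls of deficient against competent lines (3), CRISPR Control against WT (2) and KO 2 against KO 1 (2), and in each other list the largest call of deficient against competent lines. NDUFAF4, NDUFA5, NDUFB5 and NRF1 were added after their values were seen. Alternatives were the pseudocount, the minimum, the scaling, edgeR 4.0.16, DESeq2 1.42.0, the samples fitted, a replicate block and leaving out each library. The authors' columns of line means were not used. The values of 1 gene are not reported here.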

Additional observations from a re-analysis of the deposited data

Results flagged for a closer look

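The knockout lines differed from each other in 6 members, among them NDUFA4 of complex IV, by the limma test of KO 2 against KO 1. That contrast is the difference of their changes against WT. These calls made up 13.6% of the members, against 38.2% of all genes. The log2 difference, KO 2 minus KO 1, was -0.61 for NDUFAF6, -0.42 for NDUFB9, -0.36 for NDUFB4, -0.26 for NDUFA2, -0.25 for NDUFA4 and 0.32 for NDUFS4. For NDUFS4 the call was lost without KO 1 replicate 1 (0.26) or 3 (0.31) or KO 2 replicate 1 (0.28) or 3 (0.30), and for NDUFA2 without any KO 1 replicate or KO 2 replicate 1 or 2 (from -0.26 to -0.23). With 3 libraries a line, single libraries were not tested as outliers.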

How the results depend on the processing

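The median of the members turned from -0.080 to 0.015 in KO 2 against WT and from -0.021 to 0.081 in KO 2 against KO 1 with equal library totals, where the medians of all genes were 0.086 and 0.088. The intersection held 2 members with no minimum, equal library totals, TMM factors, edgeR or DESeq2, and 6 when only the lines compared entered the fit; NDUFV1 was in it under every setting. Without single libraries the calls ranged from 2 to 8 (KO 1 against WT), 8 to 16 (KO 2 against WT), 13 to 20 (CRISPR Control against WT), 18 to 24 and 18 to 28 (KO 1 and KO 2 against CRISPR Control), 3 to 8 (KO 2 against KO 1), 16 to 23 (deficient against competent) and 1 to 5 (intersection), and the median of KO 2 against KO 1 from -0.071 to -0.015. Of 141 named gene values past the threshold, 106 kept their call under every alternative, 35 lost it under some and 0 reversed. Replicate numbers did not pair the libraries (18 pairs with equal numbers, r from -0.13 to 0.16, 2 over 0.1; in 6 of 18 comparisons the best match had the same number), and the replicate block gave 7, 12, 20, 21, 20, 6 and 21 calls in these 7 comparisons in the order above, and 1 in the intersection. Where calls changed, the cause was not tested. NDUFV2 and NDUFA7 did not reach the mean required for testing and could not be compared. The cause of their low values was not tested.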
